A study of Mus musculus with 18 samples.

Results

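Actn3, Tnnc2, Tnni2, Tnnt3, Mylpf and Myl1 encode proteins of the fast sarcomere, Tnnc1, Tnni1 and Tnnt1 encode the troponin subunits of slow muscle, and Myl4 encodes a light chain of embryonic muscle and the atrium. These 10 genes were picked by symbol out of 19938 genes measured in the vestibular organs, the inner ear's organs of balance, and all 10 were measured by 1 probe set each. They were named with their levels in all 6 groups of the study already known, so their levels and differences are given as a description with no p-value. Where the fit called any of them, the count is given beside the share of all genes called and nothing is read from it. Tests are given for the other genes of the sarcomere, which were listed by function, though also with earlier results of these data known, so they are no independent evidence of direction.

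The study compared Igf1-/- mice, which lack insulin-like growth factor 1, with Igf1+/+ wild-type mice before birth (E18.5) and at P15 and P90. Each of the 6 groups had 3 arrays, which makes 18. All mice were of a hybrid Mf1 and 129/sv background and were perfused with paraformaldehyde before the inner ear was taken out and its total RNA extracted. The labels name no promoter, Cre line or tissue for the mutation. They call the arrays biological replicates without saying whether an array holds 1 animal or several. All arrays of E18.5 had Xist, the RNA of the inactive X chromosome, at 7.31 to 8.01. Their mean of the Y-linked genes Eif2s3y, Kdm5d and Uty (the Y-linked mean) was 5.23 to 5.95. Igf1-/- array 1 and Igf1+/+ arrays 1 and 3 of P15 and Igf1-/- arrays 2 and 3 of P90 were high in both as well. Such arrays held RNA of both sexes and so of more than 1 animal. The errors measure the spread between arrays, some of them pools, and not that between animals. Titles, source names and genotype entries put 9 arrays in the wild-type groups, but the description field of the 6 wild-type arrays at P15 and P90 reads Igf1 -/-, and the groups follow the titles.

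The sarcomere is the contractile unit of striated muscle. Calcium binds troponin C, the inhibitory subunit troponin I then lets go of actin, and troponin T fastens the complex to tropomyosin along the thin filament. Each subunit has a fast and a slow gene, and fibres of each type use their own set, while the light chains sit on the neck of the myosin head and alpha-actinin crosslinks thin filaments at the Z-disc. Troponins are therefore the thin-filament genes in the strict sense, the light chains Mylpf, Myl1 and Myl4 belong to the thick filament, and Actn3 to the Z-disc. The sensory epithelia of the vestibule hold no sarcomeres, whereas skeletal muscle lies close to the inner ear.

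The genes lie apart in the mouse genome (GRCm38.p6), except for a close pair on chromosome 7, Tnni2 at chr7:142441816-142444410 and Tnnt3 at chr7:142498771-142516213. Of the 10 genes, 7 had an entry in the RefSeq promoter table of that build, and Actn3, Tnni2 and Tnnt3 are named only. The 250 bases upstream of an annotated start are given for a fast and a slow troponin C, for the fast regulatory light chain and for the slow troponin T. These genes were taken since their mean genotype differences shared 1 direction at each age but their courses parted with age. All 10 genes shared these directions, and not every difference was beyond the spread of the arrays. The window of Mylpf belongs to an internal start, since it lies within the gene at chr7:127208848-127214288. Those of Tnnc2, Tnnc1 and Tnnt1 directly adjoin their genes. All windows are written 5′ to 3′ on the strand of the gene, and capitals mark every E-box, the motif CANNTG that myogenic basic helix-loop-helix factors can bind.
Tnnc2 (chr2:164779735-164779984, minus strand): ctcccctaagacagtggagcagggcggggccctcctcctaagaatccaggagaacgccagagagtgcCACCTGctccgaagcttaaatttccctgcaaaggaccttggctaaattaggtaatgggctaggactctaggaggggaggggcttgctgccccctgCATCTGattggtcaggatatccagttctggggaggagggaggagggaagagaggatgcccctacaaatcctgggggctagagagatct
Mylpf (chr7:127211358-127211607, plus strand): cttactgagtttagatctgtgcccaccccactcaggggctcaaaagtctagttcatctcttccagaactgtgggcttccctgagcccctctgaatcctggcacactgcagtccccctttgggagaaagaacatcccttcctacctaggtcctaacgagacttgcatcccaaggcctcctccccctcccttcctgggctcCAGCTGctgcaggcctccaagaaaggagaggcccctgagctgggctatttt
Tnnc1 (chr14:31208062-31208311, plus strand): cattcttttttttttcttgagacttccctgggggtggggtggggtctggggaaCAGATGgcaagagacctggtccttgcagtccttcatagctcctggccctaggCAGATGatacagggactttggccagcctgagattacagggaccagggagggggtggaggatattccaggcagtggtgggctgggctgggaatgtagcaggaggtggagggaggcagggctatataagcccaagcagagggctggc
Tnnt1 (chr7:4515976-4516225, minus strand): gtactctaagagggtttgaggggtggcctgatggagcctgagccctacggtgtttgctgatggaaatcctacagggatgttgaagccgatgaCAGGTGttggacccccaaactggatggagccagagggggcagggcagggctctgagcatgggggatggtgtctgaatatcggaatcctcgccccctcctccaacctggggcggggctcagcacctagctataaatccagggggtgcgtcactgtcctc
The E-box reads the same on both strands in this notation. The window of Tnnc2 held 2 E-boxes, that of Tnnc1 2, that of Mylpf 1 and that of Tnnt1 1, and 66.2% of the 32851 windows of this length in the table held at least 1. The window of Tnnc1 also held 1 M-CAT motif (CATTCC on either strand, in 12.6% of windows). Neither a MEF2 box (2.92% of windows) nor a CArG box (1.47%) was found in the windows of the 7 genes. These counts describe letters in a short window and say nothing about binding.

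Values are quantile-normalized log values whose base is not stated, so that 1 log unit would be 2.72-fold on a natural log scale and 2-fold on a log2 scale. Differences are Igf1-/- minus Igf1+/+ with the standard error of a limma fit across all genes, and levels of different genes cannot be set against each other because each has its own probe set. Igf1 itself was at 6.40 to 6.88 in Igf1-/- and 6.98 to 7.07 in Igf1+/+ arrays at E18.5. At P15 it was at 5.42 to 5.69 in Igf1-/- and 5.87 to 6.11 in Igf1+/+ arrays, and at P90 at 5.31 to 5.51 in Igf1-/- and 5.39 to 5.63 in Igf1+/+ arrays, which overlapped. Where its probes lie relative to the mutation is not given, so this does not check the labels. Array medians as deposited ran from 3.88 to 4.82. The arrays Igf1-/- 2 and 3 of E18.5 and Igf1+/+ 1 and 2 of P90 stood together on a principal component with 5.46% of the variance. The 9 hair cell and otic epithelium markers averaged 5.02 in Igf1-/- and 5.08 in Igf1+/+ at E18.5, 3.96 in Igf1-/- and 3.86 in Igf1+/+ at P15, and 4.09 in Igf1-/- and 3.69 in Igf1+/+ at P90. Oc90, the main protein of otoconia, was at 8.47 in Igf1-/- and 8.43 in Igf1+/+ at E18.5, and its 4 postnatal group means were 3.73 to 4.40. The 8 skeletal muscle markers averaged 6.90 in Igf1-/- and 6.29 in Igf1+/+ at E18.5. Because whole tissue was measured, a difference in the number of muscle fibres and one in RNA per fibre cannot be told apart at any age.

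At E18.5 every one of the 10 genes was higher in Igf1-/- than in Igf1+/+ organs, by 0.47 to 1.03 log units with a median of 0.74, while the median of all genes was -0.02. The 6 fast genes had a median difference of 0.87 and the 3 slow genes one of 0.55. In 9 of 10 genes the 3 Igf1-/- arrays all lay above the 3 Igf1+/+ arrays, and 7.95% of all genes did so. The genes past an adjusted p of 0.05 in the fit numbered 5, namely Actn3, Tnnc2, Tnni2, Mylpf and Myl4, against 0.0602% of all genes called higher, and nothing is read from this since these values were known when the genes were named.

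Among the fast troponins, Tnnc2, the calcium sensor, was at 7.19, 7.61 and 7.15 in Igf1-/- arrays and at 6.02, 6.42 and 6.45 in Igf1+/+ arrays, a difference of 1.02 ± 0.15 log units (SE, n = 3 each). The lowest Igf1-/- array stood well clear of the highest Igf1+/+ array. Tnni2, the inhibitory subunit, was at 6.99, 7.35 and 6.97 in Igf1-/- and at 5.95, 6.35 and 6.33 in Igf1+/+ arrays, a difference of 0.89 ± 0.15. Tnnt3, the subunit that binds tropomyosin, was at 7.93, 8.19 and 7.76 in Igf1-/- and at 7.09, 7.61 and 7.42 in Igf1+/+ arrays, a difference of 0.59 ± 0.15. The groups of Tnnt3 were separate too, though by a narrower gap than those of its fast partners.

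Actn3, the alpha-actinin of fast fibres, was at 6.21, 6.60 and 6.32 in Igf1-/- and at 5.04, 5.55 and 5.46 in Igf1+/+ arrays, a difference of 1.03 ± 0.17 log units. Of the light chains, Mylpf, the fast regulatory chain, was at 6.68, 6.88 and 6.47 in Igf1-/- and at 5.56, 5.90 and 6.01 in Igf1+/+ arrays, a difference of 0.85 ± 0.13. Myl1, the fast essential chain, was at 7.04, 7.38 and 6.91 in Igf1-/- and at 6.28, 6.69 and 6.62 in Igf1+/+ arrays, a difference of 0.58 ± 0.15. None of these groups overlapped. Myl4, the essential chain of embryonic muscle, was at 6.30, 6.70 and 6.41 in Igf1-/- and at 5.59, 5.87 and 5.68 in Igf1+/+ arrays, a difference of 0.76 ± 0.10. It was the gene of the 10 with the smallest standard error.

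The slow troponins differed in the same direction. Tnnc1, the troponin C of slow and cardiac muscle, was at 6.75, 7.04 and 6.57 in Igf1-/- and at 5.99, 6.27 and 5.97 in Igf1+/+ arrays, a difference of 0.71 ± 0.15 log units. Tnni1 was at 5.62, 6.04 and 5.38 in Igf1-/- and at 4.94, 5.38 and 5.07 in Igf1+/+ arrays, a difference of 0.55 ± 0.17, with its closest arrays of both genotypes almost level. Tnnt1 was at 6.22, 6.44 and 5.86 in Igf1-/- and at 5.61, 5.98 and 5.52 in Igf1+/+ arrays, a difference of 0.47 ± 0.17. Tnnt1 was the gene of the 10 whose arrays overlapped.

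**Figure D1:**
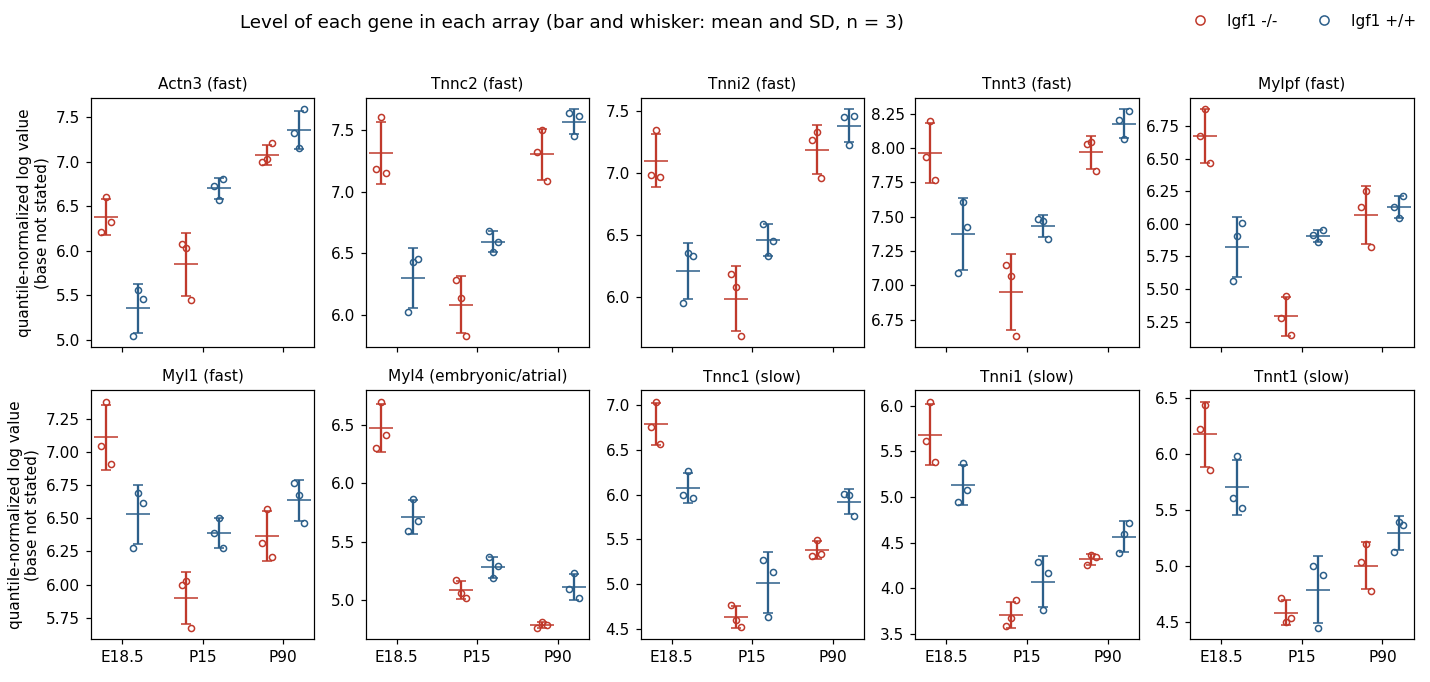
Quantile-normalized log value (base not stated) of each of the 10 genes in every array, by age and genotype, with Igf1-/- left of Igf1+/+ at each age, the mean as a bar and the SD as a whisker (n = 3). At E18.5 the Igf1-/- arrays are the higher ones in all 10 panels by their mean, and at P15 and P90 the lower ones.

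Single arrays weighed on the E18.5 values. Igf1-/- array 2 was the highest of its group in 10 of 10 genes and Igf1+/+ array 1 the lowest of its group in 8. The mean difference of the fast genes was 0.70 log units without Igf1-/- array 2 and 0.69 without Igf1+/+ array 1, against 0.83 with all arrays, and that of the slow genes was 0.43 without the first of these and 0.52 without the second, against 0.58. Igf1-/- array 2 also had a brown fat marker, Ucp1, at 6.47, whereas the other Igf1-/- arrays had 2.79 and 2.39 and the Igf1+/+ arrays 2.25 to 2.67. All 3 measured brown fat markers were higher in Igf1-/- by their means and averaged 2.18 to 4.91 in Igf1-/- and 2.09 to 2.37 in Igf1+/+ arrays, and their part in the result was not tested. The number of the 10 genes past the threshold was 0 without Igf1+/+ array 1 and 1 without Igf1-/- array 2 or Igf1+/+ array 2, and it was 3 to 5 on leaving out any other single array. It was 0 in the values as deposited, and 2 with array medians subtracted in place of quantile normalization or with the Y-linked mean as a covariate. It was 0 when the 4 arrays standing together got a term of their own. It was 0 without them too, a fit with a single Igf1-/- array that is assumed to vary like the rest, though all 10 differences kept their sign.

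At P15 the order of the genotypes was turned round, and every one of the 10 genes was lower in Igf1-/- than in Igf1+/+ organs. The differences ran from -0.85 to -0.20 log units with a median of -0.48, against 0.01 for all genes. In 7 genes, the 6 fast ones and Myl4, the 3 Igf1-/- arrays all lay below the Igf1+/+ arrays, as they did for 7.75% of all genes. None of the 10 genes passed the threshold in the limma fit, and 0.015% of all genes passed in either direction. An unadjusted p under 0.05 was found for 8 of the 10 and for 1389 of all 19938 genes, and nothing is read from this count.

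Actn3 was at 6.08, 6.03 and 5.44 in Igf1-/- and at 6.73, 6.57 and 6.80 in Igf1+/+ arrays at P15, a difference of -0.85 ± 0.17 log units. Mylpf was at 5.28, 5.45 and 5.15 in Igf1-/- and at 5.91, 5.86 and 5.95 in Igf1+/+ arrays, a difference of -0.62 ± 0.13. The Igf1+/+ arrays of Mylpf lay close together. Tnnc2 was at 6.28, 6.14 and 5.83 in Igf1-/- and at 6.68, 6.51 and 6.59 in Igf1+/+ arrays, a difference of -0.51 ± 0.15. Tnni2 (-0.48), Tnnt3 (-0.48) and Myl1 (-0.49) had differences of much the same size. Igf1-/- array 3 was the lowest of its group in all 6 fast genes, and without it the mean difference of the fast genes was -0.43, against -0.57 with all arrays. The 3 brown fat markers were lower in Igf1-/- at this age too, averaging 2.76 to 2.85 in Igf1-/- and 3.39 to 4.12 in Igf1+/+ arrays. At P90, where the muscle genes were lower in Igf1-/-, the 3 brown fat markers were higher by their means (median difference 0.49), at 3.37 to 4.64 in Igf1-/- and 2.90 to 3.45 in Igf1+/+ arrays, which overlapped.

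The slow troponins were also lower in Igf1-/- at P15 by their means, but their arrays overlapped. Tnnc1 was at 4.77, 4.60 and 4.53 in Igf1-/- and at 5.28, 4.63 and 5.14 in Igf1+/+ arrays, a difference of -0.38 ± 0.15 log units. Tnni1 was at 3.58, 3.67 and 3.87 in Igf1-/- and at 4.29, 3.76 and 4.16 in Igf1+/+ arrays, a difference of -0.36 ± 0.17. Tnnt1 was at 4.71, 4.51 and 4.54 in Igf1-/- and at 5.0, 4.45 and 4.92 in Igf1+/+ arrays, a difference of -0.20 ± 0.17. In all 3 genes Igf1+/+ array 2 was the low one of its group, and without it the mean difference of the slow genes was -0.49, against -0.32 with all arrays.

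**Figure D2:**
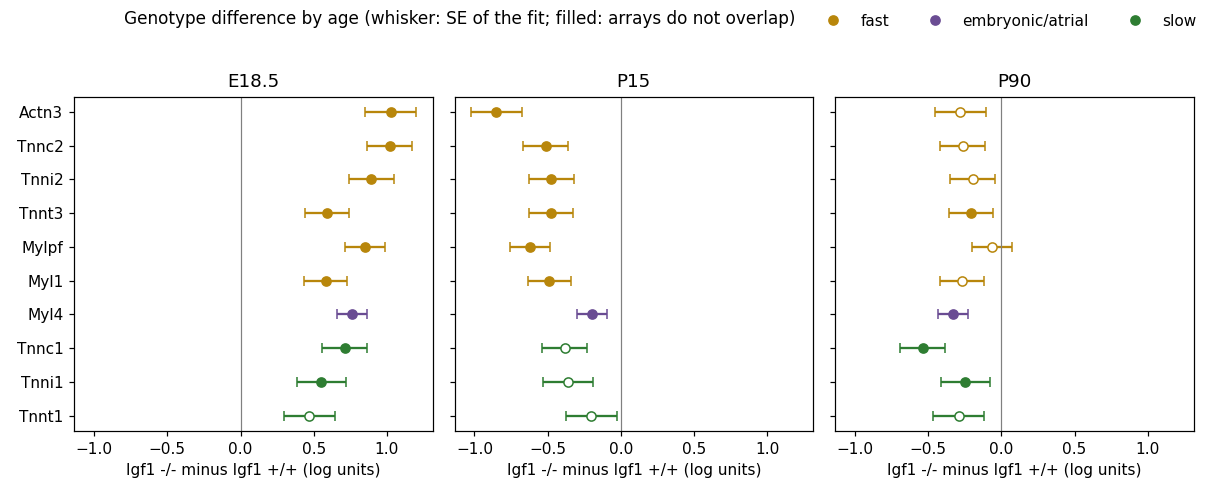
Igf1-/- minus Igf1+/+ difference of each gene in log units at E18.5, P15 and P90, with whiskers for the standard error from limma; filled points mark genes with the arrays of both genotypes apart. All points lie right of 0 at E18.5 and left of it at P15 and P90, and they are closest to 0 at P90 for every fast gene.

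At P90 the 10 genes were again lower in Igf1-/- organs by their means, by 0.06 to 0.54 log units with a median difference of -0.27, against 0.01 for all genes. The Igf1-/- arrays lay below the Igf1+/+ arrays in 4 genes (Tnnt3, Myl4, Tnnc1 and Tnni1) and in 4.06% of all genes. None of the 10 passed the threshold in the limma fit, with 0.296% of all genes called in either direction. An unadjusted p under 0.05 was found for 2 of the 10 and for 2213 of all 19938 genes, and nothing is read from this count. At this age all Igf1-/- arrays carried Xist at 7.42 to 7.91, and all Igf1+/+ arrays had it at 1.86 to 3.33. The Y-linked mean was 2.00 in Igf1-/- array 1, 5.44 and 5.49 in Igf1-/- arrays 2 and 3, and 6.12 to 6.32 in Igf1+/+ arrays. Sex and genotype were thus not balanced. At P15 Xist was at 4.09 in Igf1-/- array 3 and 5.34 in Igf1+/+ array 2, and at 7.48 to 8.09 in the others. This Igf1-/- array was the lowest of its group in all 6 fast genes, and this Igf1+/+ array in all 3 slow genes. The Y-linked mean at P15 was 3.29 in Igf1-/- array 2 and 5.56 to 6.31 in the others. The part of sex was not tested beyond the Y-linked covariate.

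Tnnc1 was the gene with the widest gap at P90, at 5.32, 5.50 and 5.34 in Igf1-/- and at 6.01, 5.99 and 5.76 in Igf1+/+ arrays, a difference of -0.54 ± 0.15 log units. Myl4 was at 4.76, 4.81 and 4.79 in Igf1-/- and at 5.10, 5.24 and 5.02 in Igf1+/+ arrays, a difference of -0.33 ± 0.10. For Myl4 the Igf1-/- arrays were almost equal. Mylpf was at 6.13, 6.25 and 5.82 in Igf1-/- and at 6.13, 6.05 and 6.22 in Igf1+/+ arrays, a difference of -0.06 ± 0.13 that turned to 0.06 without Igf1-/- array 3 and to 0.11 in the values as deposited. The remaining 7 genes had differences of -0.29 to -0.20.

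The genotype difference at P15 minus that at E18.5 was negative for each of the 10 genes, from -1.88 ± 0.25 log units for Actn3 to -0.67 ± 0.25 for Tnnt1, with a median of -1.08 against 0.03 for all genes. The 5 genes past the threshold were those called at E18.5, where 0.13% of all genes were called lower, and again nothing is read from this count. It was 2 without Igf1+/+ array 1 of P15, 3 without Igf1+/+ array 1 or 3 of E18.5 or Igf1-/- array 3 or Igf1+/+ array 3 of P15, 8 without Igf1-/- array 3 of E18.5 and 0 without the 4 arrays that stood together. It was 2 with a term for those 4 and 0 in the values as deposited, and all 10 differences stayed negative. Actn3 had the widest swing of the fast genes, followed by Tnnc2 (-1.53) and Mylpf (-1.47), and Tnnc1 (-1.10) had the widest of the slow ones.

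The fast and slow genes differed in their course with age. In Igf1+/+ organs the 3 slow troponins were lower at P15 than at E18.5, Tnnc1 and Tnni1 by 1.06 log units each and Tnnt1 by 0.91. For all 3 the P15 arrays lay below those of E18.5, as they did for 6326 of all 19938 genes. Over the same interval Actn3 was higher by 1.35 ± 0.17, Tnnc2 by 0.30 ± 0.15 and Tnni2 by 0.25 ± 0.15, while Mylpf (0.09 ± 0.13), Tnnt3 (0.06 ± 0.15) and Myl1 (-0.14 ± 0.15) differed by less than their standard error. Myl4 was lower by 0.43 (SE 0.10). Of the 10 genes 1 was called higher (19.7% of all genes) and 4 were called lower (21.9%), Myl4 and the slow troponins. As for the genotype differences, nothing is read from these or the other counts of the 10 genes called between ages, since their levels in all groups were known when they were named. The signs of Mylpf and Tnnt3 turned without Igf1+/+ array 1 of E18.5 (-0.04 and -0.09).

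In Igf1-/- organs all 10 genes were lower at P15 than at E18.5 and all 10 were called lower (20.5% of all genes; 20.3% were called higher). The differences were -2.15 ± 0.15 log units for Tnnc1, -1.97 ± 0.17 for Tnni1 and -1.59 ± 0.17 for Tnnt1, and they ran from -1.39 for Mylpf to -0.53 for Actn3 among the fast genes. Myl4 was lower by 1.39 (SE 0.10). The E18.5 and P15 arrays of each genotype enter both the age and the genotype differences, so these values are not separate evidence.

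From P15 to P90 most genes were higher at the later age in both genotypes. In Igf1-/- organs the fast genes were higher by 0.46 (Myl1) to 1.23 (Actn3 and Tnnc2) log units and the slow ones by 0.42 (Tnnt1) to 0.75 (Tnnc1), with 7 of 10 genes called higher (6.12% of all genes) and 0 lower (6.83%). In Igf1+/+ organs the fast genes were higher by 0.22 (Mylpf) to 0.97 (Tnnc2) and the slow ones by 0.49 (Tnni1) to 0.91 (Tnnc1), with 5 called higher (8.08%) and 0 lower (9.78%). The called count in Igf1+/+ was 2 without the 4 arrays that stood together, when a single P90 array remained, and leaving out 1 array gave 4 to 7. Myl4 alone was lower at P90 by its mean, by 0.30 (SE 0.10) in Igf1-/- and by 0.17 (SE 0.10) in Igf1+/+ organs, but its difference in Igf1-/- turned to 0.06 in the values as deposited. With array medians subtracted in place of quantile normalization, Mylpf and Myl1 turned to -0.05 and -0.07 in Igf1+/+.

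Ordered by group mean, the slow troponins shared 1 order, with Igf1-/- and then Igf1+/+ of E18.5 at the top, both P90 groups next and both P15 groups last, Igf1+/+ above Igf1-/- after birth. Tnnc2, Tnni2, Tnnt3 and Actn3 instead had Igf1+/+ of P90 at the top. For the 3 fast troponins the Igf1-/- groups of P90 and E18.5 were less apart than the replicates, as at 7.31 ± 0.21 and 7.32 ± 0.25 for Tnnc2 (SD, n = 3), while for Actn3 they were at 7.08 ± 0.11 and 6.38 ± 0.20. Mylpf and Myl1 had Igf1-/- of E18.5 at the top. Myl4 had both E18.5 groups at the top and Igf1-/- of P90 at the bottom.

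Taken as classes, the mean of the 6 fast genes was 7.09 ± 0.22 in Igf1-/- and 6.26 ± 0.24 in Igf1+/+ at E18.5 (SD, n = 3). It was 6.01 ± 0.24 in Igf1-/- and 6.58 ± 0.05 in Igf1+/+ at P15, and 7.0 ± 0.14 in Igf1-/- and 7.21 ± 0.09 in Igf1+/+ at P90. The fast mean was thus the higher one in Igf1-/- at the first age and the lower one at the later ages. The mean of the 3 slow genes was 6.21 ± 0.29 in Igf1-/- and 5.64 ± 0.21 in Igf1+/+ at E18.5. It was 4.31 ± 0.05 in Igf1-/- and 4.63 ± 0.30 in Igf1+/+ at P15, and 4.90 ± 0.10 in Igf1-/- and 5.26 ± 0.08 in Igf1+/+ at P90. The arrays of both genotypes were separate for the fast mean at E18.5 and P15 and for the slow mean at E18.5 and P90.

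The fast mean minus the slow mean is a scale whose zero has no meaning, but its changes can be read. It was 0.88 ± 0.10 log units in Igf1-/- and 0.63 ± 0.21 in Igf1+/+ at E18.5, 1.70 ± 0.24 in Igf1-/- and 1.95 ± 0.27 in Igf1+/+ at P15, and 2.09 ± 0.05 in Igf1-/- and 1.95 ± 0.15 in Igf1+/+ at P90. The arrays of the genotypes overlapped at each age. All 12 postnatal arrays, at 1.42 to 2.26, lay above all 6 arrays of E18.5, at 0.47 to 0.99.

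**Figure D3:**
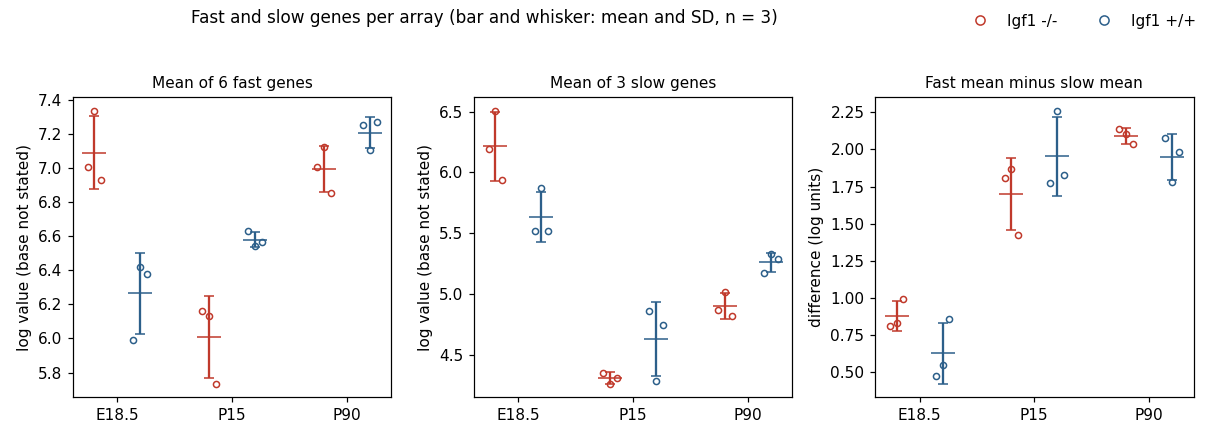
Mean log value of the 6 fast genes (left), of the 3 slow genes (middle) and the fast mean minus the slow mean in log units (right) in each array, with Igf1-/- left of Igf1+/+ at each age, bars for means and whiskers for SD (n = 3). The difference in the right panel is 0.47 to 0.99 at E18.5 and 1.42 to 2.26 after birth, with the genotypes overlapping at every age.

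Other muscle genes moved with the 10 genes, which was measured with 8 markers of skeletal muscle (Acta1, Ckm, Myh3, Myh4, Ttn, Neb, Mb and Casq1). Their mean was higher in Igf1-/- by 0.61 log units at E18.5 and lower by 0.55 at P15 and 0.22 at P90. Relative to this mean, Actn3 was still higher in Igf1-/- at E18.5 by 0.41, Tnnc2 by 0.41, Tnni2 by 0.28 and Mylpf by 0.24, with separate arrays. The fast genes Tnnt3 (-0.02) and Myl1 (-0.03) were not. The fast mean was higher by 0.21 with separate arrays, while the slow mean differed by -0.04. At P15 the relative difference of Actn3 was -0.30 with the Igf1-/- arrays below, and that of Myl4 was 0.36 with the Igf1-/- arrays above. That of the fast mean was -0.02 and that of the slow mean 0.24. At P90 Tnnc1 was at -0.32 with the Igf1-/- arrays below, the fast mean at 0.01 and the slow mean at -0.14. For the other genes and class means at each age the relative values of the genotypes overlapped.

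The smooth muscle markers had median genotype differences of 0.08, 0.08 and -0.08 log units at the 3 ages (7 genes), and the heart muscle markers 0.05, -0.05 and -0.12 (6 genes). In the 6 group means the heart markers Nppa ran from 2.22 to 2.82, Myl7 from 2.66 to 3.08, Tnni3 from 3.49 to 4.13, Myh6 from 3.28 to 3.92, Ryr2 from 3.82 to 6.53 and Tnnt2, which embryonic skeletal muscle also uses, from 3.97 to 6.22. Tnnt2 differed by 0.52 between Igf1-/- and Igf1+/+ at E18.5, with the Igf1-/- arrays above. None of the skeletal, smooth or heart muscle markers passed the test between genotypes at any age. Of the 9 hair cell and otic epithelium markers, 8 were higher in Igf1-/- at P90 and 2 of them passed the test, with averages of 3.99 to 4.27 in Igf1-/- and 3.61 to 3.77 in Igf1+/+ arrays. The part of these and the brown fat markers in the values of the muscle genes was not tested.

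Over the 18 arrays the 3 slow troponins correlated with each other at r = 0.960 to 0.977, and pairs of fast genes at r = 0.222 to 0.997. Fast with slow pairs ran from r = -0.135 to 0.884. With the group means removed, the median r was 0.788 for fast pairs, 0.785 for slow pairs and 0.415 for fast with slow pairs. These values describe arrays that share age, genotype and dissection, and carry no test.

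The genes outside the 10 whose values over the 18 arrays were most like the fast mean were Tpm2, a tropomyosin (r = 0.979), Ckm, the muscle creatine kinase (0.979), Myoz1 (0.976), Klhl31 (0.975) and Pgam2, the muscle phosphoglycerate mutase (0.971). With group means removed their r was 0.855 to 0.927. The genes most like the slow mean were Myh7, the slow myosin heavy chain (r = 0.951), Dusp22 (0.943), Tnxb (0.938), Cav3, the muscle caveolin (0.936), and Rpl7a (0.933). With group means removed, Myh7 kept 0.878, whereas Cav3 had 0.116 and Tnxb 0.324.

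The wider sarcomere was described with 68 measured genes of 69 listed, 49 of them in 4 lists of striated muscle genes. Acta1, Myh3, Myh4, Ttn and Neb were also among the skeletal muscle markers above, so the marker mean and these lists are not separate evidence. At E18.5, 45 of the 49 were higher in Igf1-/- with a median difference of 0.62 log units, and 0 passed the limma test over all genes although 39 had an unadjusted p under 0.05. All 12 Z-disc genes were higher (median 0.81), and Ldb3, which holds alpha-actinin at the Z-disc, had the smallest adjusted p among them (0.88 ± 0.16, adjusted p = 0.06). Of the other thin-filament genes, 12 of 14 were higher (median 0.61), such as Nrap (0.77 ± 0.18, adjusted p = 0.11). Of the thick-filament and titin genes, 15 of 16 were higher (median 0.57), such as Myom3 (0.58 ± 0.14, adjusted p = 0.12), and of the other light chain and kinase genes 6 of 7 (median 0.43), such as Myl2, the light chain of slow and ventricular muscle (0.88 ± 0.20, adjusted p = 0.11). Leaving out 1 array gave 0 to 6 called genes among the 68, with 6 without Igf1-/- array 1, 4 without Igf1-/- array 3 and 1 without Igf1+/+ array 1 or 3 of P15.

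At P15, 45 of the 49 striated muscle genes were lower in Igf1-/- (median -0.29), and 0 passed the limma test while 20 had an unadjusted p under 0.05. Myl2 differed by -0.86 ± 0.20 (adjusted p = 0.32), Acta1, the skeletal alpha-actin, by -0.66 ± 0.16 (adjusted p = 0.34) and Myh4, the heavy chain of the fastest fibres, by -0.83 ± 0.24 (adjusted p = 0.48). At P90, 43 of the 49 were lower (median -0.19), 0 passed and 4 had an unadjusted p under 0.05. The smallest adjusted p was that of Pdlim3 of the Z-disc (-0.41 ± 0.14, adjusted p = 0.31). Of all 19938 genes, 2501 at E18.5, 1389 at P15 and 2213 at P90 had an unadjusted p under 0.05.

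The difference between the genotype differences of P15 and E18.5 was tested for these genes. It was negative in 48 of 49 striated muscle genes (median -0.98). Against 0.13% of all genes called lower, 5 of these genes fell past the threshold. These were Myl2 (-1.73 ± 0.29, adjusted p = 0.028), Ldb3 (-1.36 ± 0.23, adjusted p = 0.028), Myoz1, a Z-disc protein of fast fibres (-1.36 ± 0.25, adjusted p = 0.038), Acta1 (-1.26 ± 0.23, adjusted p = 0.038) and Lmod3, which nucleates thin filaments (-1.22 ± 0.22, adjusted p = 0.038), all from limma over all genes. Myl2 was at 5.41 ± 0.32 in Igf1-/- and 4.53 ± 0.28 in Igf1+/+ at E18.5, and at 3.62 ± 0.28 in Igf1-/- and 4.48 ± 0.28 in Igf1+/+ at P15 (SD, n = 3). The count of 5 was 0 without Igf1-/- array 1 or 2 or Igf1+/+ array 1 or 3 of E18.5, and 0 without Igf1-/- array 2 or 3 or Igf1+/+ array 1 or 3 of P15. It was 1 without Igf1-/- array 1 of P90, 2 without Igf1+/+ array 2 of P15 or any Igf1+/+ array of P90, 3 without Igf1+/+ array 2 of E18.5 or Igf1-/- array 3 of P90, 11 without Igf1-/- array 1 of P15 and 13 without Igf1-/- array 3 of E18.5.

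**Figure D4:**
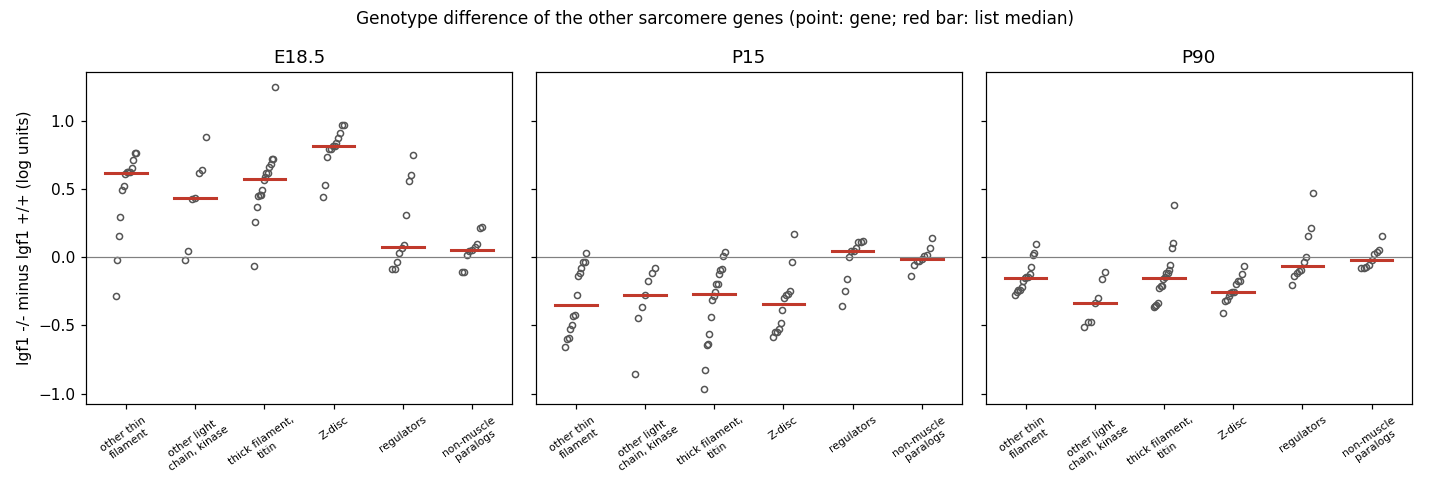
Igf1-/- minus Igf1+/+ difference in log units of each listed sarcomere gene, muscle regulator and non-muscle paralog at E18.5, P15 and P90; each point is a gene and each red bar the median of its list. The 4 striated muscle lists have medians of 0.43 to 0.81 at E18.5 and -0.35 to -0.27 at P15, and the non-muscle paralogs have medians of 0.05, -0.02 and -0.02 at the 3 ages.

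The non-muscle relatives of these proteins, 9 genes such as the alpha-actinins Actn1 and Actn4 and the light chains Myl6 and Myl9, had median genotype differences of 0.05, -0.02 and -0.02 log units at E18.5, P15 and P90, and 0 passed the test at any age (1, 0 and 0 with an unadjusted p under 0.05). The 10 measured regulators of muscle and fibre type had medians of 0.08, 0.05 and -0.07, and 0 passed either (4, 0 and 1 with an unadjusted p under 0.05). Myod1, a master regulator of the myogenic lineage, had 0.60 ± 0.11 at E18.5 (adjusted p = 0.055) and Vgll2, a cofactor tied to the slow programme in mice, 0.55 ± 0.13 (adjusted p = 0.11). Six4, a homeodomain regulator of fast genes, had 0.47 ± 0.11 at P90 (adjusted p = 0.1).

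With age some myosin heavy chains changed by more than any of the 10 genes. In Igf1-/- organs Myh3, the embryonic chain, fell by 4.23 log units from E18.5 to P15 (SE 0.21, adjusted p = 1.1e-09) and Myh8, the perinatal chain, by 3.71 (adjusted p = 1.1e-09), while Myh4 rose by 2.46 (adjusted p = 7.5e-07). In Igf1+/+ organs Myh3 fell by 3.25 (adjusted p = 1.1e-08) and Myh8 by 2.90 (adjusted p = 8.7e-09), while Myh4 rose by 3.75 (adjusted p = 9.1e-09) and Myh1, the chain of intermediate fast fibres, by 2.09 (adjusted p = 3e-07). Tnnt2, the cardiac troponin T that embryonic skeletal muscle also uses, fell by 2.23 in Igf1-/- (adjusted p = 5.1e-09) and fell by 1.73 in Igf1+/+ (adjusted p = 5.3e-08). Actc1, the cardiac actin of early muscle, fell by 2.36 in Igf1-/- (adjusted p = 1.6e-05) and fell by 1.61 in Igf1+/+ (adjusted p = 0.00054).

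Of the 49 striated muscle genes, 3 rose and 34 fell from E18.5 to P15 in Igf1-/-, and 10 rose and 12 fell in Igf1+/+, by limma over all genes. Of all genes, 20.3% rose and 20.5% fell in Igf1-/-, and 19.7% rose and 21.9% fell in Igf1+/+. The Igf1+/+ counts thus lay close to the share of all genes. From P15 to P90, 33 of the 49 rose and 0 fell in Igf1-/-, where 6.12% of all genes rose and 6.83% fell. In Igf1+/+ 29 rose and 1 fell, where 8.08% of all genes rose and 9.78% fell. Neb, the giant protein that sets thin-filament length, rose by 1.23 in Igf1-/- (adjusted p = 5e-04) and 0.95 in Igf1+/+ (adjusted p = 0.0032), and Tmod4, which caps thin filaments in skeletal muscle, by 1.13 in Igf1-/- (adjusted p = 0.00012) and 0.84 in Igf1+/+ (adjusted p = 0.0012). Among the regulators, Myog, which drives fusion and differentiation of muscle cells, fell by 1.57 in Igf1-/- from E18.5 to P15 (adjusted p = 2.9e-07) and fell by 1.27 in Igf1+/+ (adjusted p = 2.5e-06). Sox6, which represses slow genes in fast fibres of mice, fell by 1.24 in Igf1-/- (adjusted p = 3.2e-07) and fell by 1.12 in Igf1+/+ (adjusted p = 8.8e-07). Without Igf1+/+ array 2 of P15, 19 of the 68 listed genes were called between P15 and P90 in Igf1+/+, against 35 with all arrays, and 12 were called without the 4 arrays that stood together.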

How the data were processed

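The authors deposited 1 table of log-type scores for 28853 probe sets in 18 Affymetrix mouse gene arrays. The log base, the summarization and the background correction were not stated in the labels or the table, so the values were treated as a score on a log scale of unknown base. Per the labels' protocols, total RNA was extracted with Trizol and amplified with a whole-transcript labelling protocol. Gene symbols came from the platform annotation (21789 probe sets with 1 symbol, 1621 with several, 5443 not listed), updated through RefSeq gene identifiers of GRCm38.p6 where they matched (21698). Arrays were quantile normalized, the probe set with the highest mean was kept per gene, and 1 mean was fitted for each of the 6 groups (R 4.3.3 with limma 3.58.1). Empirical Bayes moderation added 2.98 prior degrees of freedom, p-values were adjusted by Benjamini-Hochberg over 19938 genes, and the threshold was 0.05. No filter on dim genes was used. Quantile normalization removes any difference in overall distribution, so changes are relative to other genes. The number of arrays limits the precision.

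The 10 genes and all lists were chosen with earlier results of these data known. The genes named are the 10, up to 4 called genes of each list and contrast with the smallest p (the 2 smallest where 0 were called), the 5 most like the fast and the slow mean, and the cell type markers; not all are named. Replicate numbers did not pair arrays: deviations of same-numbered arrays correlated at -0.185 to 0.238, over 0.1 in 2 of 9 pairs. The plan had assumed values on a known log scale. The fit was also run on simulated arrays with independent noise per gene. The muscle genes here vary together, so nothing is read from that run. The alternatives were other scalings, the mean of probe sets, a filter on dim genes, a trend and robust prior, a replicate block, a term for 4 arrays, a Y-linked covariate and leaving out each array, and leaving out the 4 arrays together was added after seeing the data.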

Additional observations from a re-analysis of the deposited data

Results flagged for a closer look

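Several genes had all Igf1-/- arrays above all Igf1+/+ arrays at one age and below them at another. Between P15 and E18.5 the genotype difference changed in this way by -1.88 log units for Actn3, -1.53 for Tnnc2, -1.37 for Tnni2, -1.07 for Tnnt3, -1.47 for Mylpf, -1.07 for Myl1 and -0.96 for Myl4. Between P90 and E18.5 it changed by -0.80 for Tnnt3, -1.09 for Myl4, -1.25 for Tnnc1 and -0.80 for Tnni1. No p-value is given for these changes, because the genes were chosen with the values known. How many of all genes had such a reversal was not counted, so nothing is read from the number of genes here. For the P15 minus E18.5 change the fit called Actn3, Tnnc2, Tnni2, Mylpf and Myl4, from which nothing is read, and the P90 minus E18.5 change was not tested.

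In 5 other muscle genes the change of the genotype difference between P15 and E18.5 passed the limma test over all genes: -1.26 for Acta1, -1.22 for Lmod3, -1.73 for Myl2, -1.36 for Myoz1 and -1.36 for Ldb3. Of all genes, 0.13% were called lower. The count of 5 depended on single arrays and on the setting, as given above and below.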

How the results depend on the processing

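All 10 genes kept a positive genotype difference at E18.5 and a negative one at P15 under the scalings, added terms and left-out arrays tried, and no class mean turned its sign. At P90 the mean differences shrank in the values as deposited, to -0.039 for the fast and -0.18 for the slow genes. Single genes turned sign 10 times, in Mylpf, Tnnt3, Myl1 and Myl4, at P90 or between ages. The scaling moved the median of all genes, at E18.5 from -0.02 to -0.12 with array medians subtracted and -0.15 as deposited, at P90 to 0.17 as deposited, and between ages to as much as 0.39 as deposited (P90 minus P15 in Igf1-/-). The called listed genes of the P15 minus E18.5 genotype difference numbered 5, against 3 with array medians subtracted, 13 with a trend and robust prior, and 0 as deposited, with the replicate block, with a term for 4 arrays, with the Y-linked covariate and without the 4 arrays; leaving out 1 array gave 0 to 13. At E18.5 they numbered 0, against 2 without dim genes, 5 with a trend and robust prior and 0 to 6 without 1 array, and at P90 0, against 0 to 1 without 1 array. In wild type 34 were called between E18.5 and P15, against 21 as deposited, and 35 between P15 and P90, against 20 with the term for 4 arrays, 12 without them and 19 to 37 without 1 array. The cause of these shifts was not tested. With the replicate block, 1 of the 10 genes was called at E18.5 and 2 for the P15 minus E18.5 difference, in place of 5 each, and beside the 0 of 5 listed genes above no other count of these or the listed genes moved by over 1.5 times.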
